A study of Mus musculus with 16 samples.

Results

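Expression of 9 genes of the hedgehog pathway was examined in the mouse thyroid gland, namely that of the inhibitor *Hhip*, the ligands *Shh*, *Ihh* and *Dhh*, the receptor *Ptch1*, the signal transducer *Smo* and the transcription factors *Gli1*, *Gli2* and *Gli3*. They were the rows carrying these symbols among the 25611 entries of the gene count table. *Hhip* was included because it was higher in thyroids of *Glis3*-Pax8Cre mice, so its own values are a description without a test. The other members were included for their role in the pathway, and the question was whether the rise of *Hhip* came with a change in the genes that report pathway activity.

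Hedgehog ligands are secreted proteins that bind the receptor PTCH1, which otherwise keeps SMO inactive. Active SMO stops the processing of GLI2 and GLI3 into repressors, and GLI activators then induce target genes, of which *Gli1*, *Ptch1* and *Hhip* are the classical readouts. HHIP binds the ligands at the cell surface and so limits the pathway, as PTCH1 does. GLIS3, the zinc finger factor deleted here, is a relative of the GLI factors and is needed in thyroid follicular cells for the genes of thyroid hormone synthesis.

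RNA-Seq was done on thyroid glands of 16 female C57BL/6 mice in 4 groups of 4. The WT(ND) and *Glis3*-Pax8Cre(ND) groups received the NIH-31 normal diet (ND). The low-iodine diet (LID, Harlan TD.95125) was given for 6 days to the groups named WT(LID) and *Glis3*-Pax8Cre(LID). The labels give an age of 1 month and weaning at 3 weeks, and the methods an age of 4 weeks. *Glis3*-Pax8Cre mice carried Glis3<tm2Amj> and Pax8<tm1.1(cre)Mbu>, so that Cre was made wherever *Pax8* was active, and exon 5 of *Glis3* was removed in those cells only. Whole glands were sequenced, which also hold vessels, fibroblasts, parathyroid cells and C cells.

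Between 13892352 and 461077969 read pairs per library were assigned to genes, so that a gene with 0 counts could be at up to 3, which is 0.00651 to 0.216 CPM (counts scaled to a common library size). *Glis3* itself was at 45.2 to 204 CPM over the 16 mice, and counts over the whole gene do not show the loss of 1 exon, so the deletion was not checked by them. *Tg*, *Pax8* and *Nkx2-1*, which define follicular cells, were detected in every mouse. *Pax8* was at 996 CPM in WT(ND) replicate 3 and between 374 and 397 CPM in the other WT(ND) mice. The *Glis3*-Pax8Cre(ND) mice had 643 to 989 CPM of *Pax8*, and why this WT(ND) mouse was near them was not tested. Summed thymocyte markers reached 1857 CPM in the *Glis3*-Pax8Cre(ND) mice replicate 4. No member gained or lost its call between *Glis3*-Pax8Cre(ND) and WT(ND) when either mouse was left out. Differences below are log2 fold changes with their standard error from edgeR's quasi-likelihood test in all 16 mice, and calls were made at an adjusted p under 0.05 after Benjamini-Hochberg adjustment over 16630 genes. Of the 9 members, 7 passed the filter on low counts, and *Shh* and *Ihh* did not.

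*Hhip* (Entrez 15245, mm10 chr8:79965851-80058008, minus strand) was at 7.20, 4.21, 11.3 and 9.36 CPM in the 4 WT(ND) mice, against 161, 176, 247 and 264 CPM in the *Glis3*-Pax8Cre(ND) mice. On the low-iodine diet, the values were 16.1, 26.5, 18.4 and 18.3 CPM in the WT(LID) mice, against 975, 761, 1311 and 1274 CPM in the *Glis3*-Pax8Cre(LID) mice. All 8 *Glis3*-Pax8Cre mice lay above all 8 WT mice, and within each genotype all LID mice lay above all ND mice. The share of tested genes whose groups did not overlap was 35.5% between the genotypes on the LID, 19.5% on the ND, 46.9% between the diets in WT and 21.9% between the diets in *Glis3*-Pax8Cre mice. Because bulk tissue was sequenced, fewer cells of a type and less RNA per cell cannot be told apart, for this and every gene below.

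The log2 difference of *Hhip* between *Glis3*-Pax8Cre(LID) and WT(LID) was 5.77 (standard error 0.33), a 54.6-fold higher level, with a 95% interval of the fold from 33.5 to 88.8. On the ND it was 4.72 (0.31), or 26.3-fold, with an interval from 16.5 to 41.9. *Hhip* ranked 12 and 17 from the top of the 16630 genes by this difference on the LID and on the ND. The LID itself went with a difference of 1.30 (0.28) in WT and of 2.35 (0.28) in *Glis3*-Pax8Cre mice, and the difference between these was 1.05 (0.38). No p-value is given for these values, since they chose the gene.

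**Figure D1:**
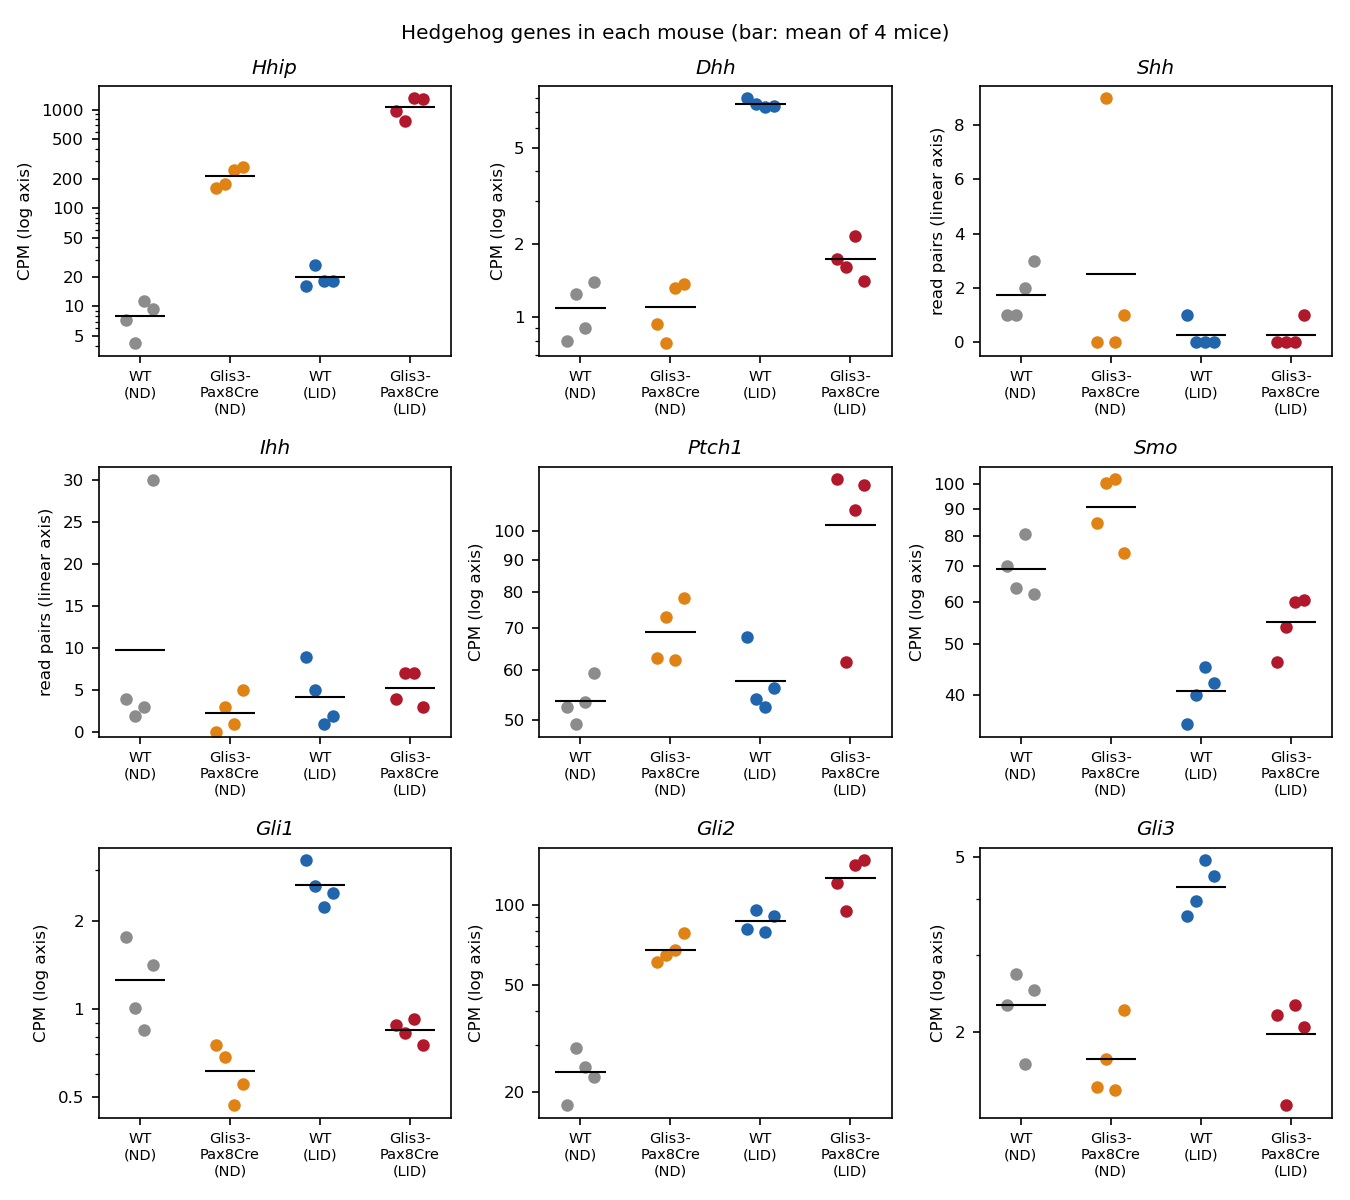
Level of each of the 9 genes in each of the 16 mice, in 4 groups of 4, with the mean as a bar. The vertical axis is CPM on a log scale, or the number of read pairs on a linear scale for *Shh* and *Ihh*. *Hhip* separates the genotypes on both diets, *Dhh*, *Gli1* and *Gli3* are highest in WT(LID), and *Shh* and *Ihh* stay at 30 read pairs or fewer.

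The sequence before the start of *Hhip* is shown because the GLI factors act by binding DNA and because *Hhip* had the largest difference among the members. It covers the 250 bases upstream in the RefSeq annotation of GRCm38.p6, chr8:80058009-80058258 on the minus strand, written 5′ to 3′ along the gene. Capitals mark a cAMP response element, 75 to 68 bases before the start.
*Hhip* upstream: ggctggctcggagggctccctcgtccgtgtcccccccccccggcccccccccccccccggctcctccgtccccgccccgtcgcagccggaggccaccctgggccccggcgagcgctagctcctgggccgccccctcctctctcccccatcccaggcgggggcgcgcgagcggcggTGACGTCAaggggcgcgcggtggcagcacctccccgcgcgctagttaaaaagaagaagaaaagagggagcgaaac

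These bases were 76% G or C, against a median of 52.4% over all promoters of the table. They held neither the GLI site TGGGTGGTC nor the GLIS core TGGGGGGT on either strand. The cAMP response element TGACGTCA, a palindrome that was added to the search after the sequence had been read, was present in the upstream bases of 1.55% of 32851 promoters. The GLI site was present in 0.225% and the GLIS core in 1.36% of them. Of the 9 members, 7 had an entry, all but *Shh* and *Gli1*, and none of these 7 held the GLI site or the GLIS core. A match or its absence in this window describes these letters only, and no binding was measured.

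Of the 3 ligands, only *Dhh* passed the filter on low counts. *Shh* (Entrez 20423, chr5:28456840-28467101), the ligand of foregut epithelium in the embryo, had 0 to 9 read pairs per library, the 9 in *Glis3*-Pax8Cre(ND) replicate 2, and 0 in 8 of the 16 libraries. It overlaps 9530036O11Rik on the other strand, and the counting did not use strand. *Ihh* (Entrez 16147, chr1:74945315-74951672), best known from cartilage and gut epithelium, had 0 to 30 read pairs, the 30 in the deepest library. Summed over a group, there were 39 read pairs of *Ihh* in WT(ND) and 17 in WT(LID), against 9 in *Glis3*-Pax8Cre(ND) and 21 in *Glis3*-Pax8Cre(LID). The depth of the groups differed, and scaled to it these sums were 0.0595, 0.0633, 0.0307 and 0.0760 CPM in the same order. A difference between the groups was not detectable for either gene at this depth.

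*Dhh* (Entrez 13363, chr15:98891155-98898540), the ligand known from Schwann cells and testis, was at 0.799, 1.25, 0.904 and 1.40 CPM in the WT(ND) mice, against 0.941, 0.781, 1.32 and 1.37 CPM in the *Glis3*-Pax8Cre(ND) mice. The WT(LID) mice had 7.98, 7.55, 7.35 and 7.41 CPM, against 1.74, 1.61, 2.17 and 1.41 CPM in the *Glis3*-Pax8Cre(LID) mice. The 4 WT(LID) mice lay above all the others without overlap, while the ND groups overlapped. On the LID, *Dhh* was lower in *Glis3*-Pax8Cre mice by -2.13 (standard error 0.22, adjusted p = 3.91e-06, edgeR), and on the ND the difference was 0.016 (0.22, adjusted p = 0.970, edgeR; 95% interval -0.44 to 0.48). The LID raised *Dhh* by 2.79 (0.22, adjusted p = 2.14e-07, edgeR) in WT. In *Glis3*-Pax8Cre mice the diet difference was 0.65 (0.22, adjusted p = 0.0386, edgeR), and a fit of these 8 mice with the replicate number as a block, which pairs them, gave 0.66 with an adjusted p of 0.102. This call was also lost when any of 9 single mice was left out and with library size alone (adjusted p = 0.0968, edgeR). The response of *Dhh* to the diet differed between the genotypes, by -2.14 (0.30, adjusted p = 0.000294, edgeR's interaction term).

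The receptor gene *Ptch1* rose in *Glis3*-Pax8Cre(LID). *Ptch1* (Entrez 19206, chr13:63508328-63573460) was at 67.7, 53.9, 52.4 and 56.2 CPM in the WT(LID) mice, against 121, 61.9, 108 and 118 CPM in the *Glis3*-Pax8Cre(LID) mice, a difference of 0.83 (0.17, adjusted p = 0.00132, edgeR). The groups overlapped through *Glis3*-Pax8Cre(LID) replicate 2, which had the lowest *Hhip* of its group as well. On the ND, the levels were 52.4, 49.1, 53.4 and 59.3 CPM in the WT(ND) mice, against 62.6, 72.8, 62.2 and 78.1 CPM in the *Glis3*-Pax8Cre(ND) mice, a difference of 0.36 (0.16, adjusted p = 0.133, edgeR). These groups did not overlap, but the difference did not pass the test, with a 95% interval of 0.01 to 0.71. It passed with library size alone (adjusted p = 0.049, edgeR), with only the 8 ND mice (0.0466) and without *Glis3*-Pax8Cre(LID) replicate 2 (0.0183).

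*Ptch1* did not pass the test between the diets in WT, with 0.10 (0.16, adjusted p = 0.652, edgeR; 95% interval -0.25 to 0.45), and this value turned to -0.048 with library size alone. In *Glis3*-Pax8Cre mice it was higher on the LID by 0.57 (0.17, adjusted p = 0.0201, edgeR), but the blocked fit of these 8 mice gave 0.53 with an adjusted p of 0.107, and the call was lost without any of 4 single mice. The interaction of genotype and diet was 0.46 (0.23, adjusted p = 0.217, edgeR). Without *Glis3*-Pax8Cre(LID) replicate 2 it was 0.64 with an adjusted p of 0.0101, so this 1 mouse decided the call.

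*Smo*, which carries the signal once PTCH1 is bound, was higher in *Glis3*-Pax8Cre mice on both diets and lower on the LID in both genotypes. *Smo* (Entrez 319757, chr6:29735497-29761366) was at 70.0, 63.7, 80.7 and 62.1 CPM in the WT(ND) mice, against 84.6, 101, 102 and 74.1 CPM in the *Glis3*-Pax8Cre(ND) mice. On the low-iodine diet, the values were 35.2, 40.0, 45.2 and 42.2 CPM in the WT(LID) mice, against 46.1, 53.7, 60.0 and 60.4 CPM in the *Glis3*-Pax8Cre(LID) mice. The genotypes overlapped on the ND and did not on the LID. The genotype difference was 0.44 (0.12, adjusted p = 0.0135, edgeR) on the LID and 0.39 (0.12, adjusted p = 0.0371, edgeR) on the ND. The first was lost without WT(LID) replicate 1 (0.0511), and the second without WT(ND) replicates 1, 2 or 4 or *Glis3*-Pax8Cre(ND) replicates 2 or 3, with adjusted p up to 0.103, and with only the 8 ND mice (0.0816). The diet difference was -0.77 (0.12, adjusted p = 0.000162, edgeR) in WT and -0.72 (0.12, adjusted p = 0.000717, edgeR) in *Glis3*-Pax8Cre mice.

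*Gli1*, the target gene most often read as a measure of hedgehog signalling, was lower in *Glis3*-Pax8Cre glands, opposite in direction to *Hhip*. *Gli1* (Entrez 14632, chr10:127329882-127341579) was at 3.23, 2.64, 2.23 and 2.505 CPM in the WT(LID) mice, against 0.881, 0.830, 0.928 and 0.756 CPM in the *Glis3*-Pax8Cre(LID) mice. On the normal diet, the values were 1.77, 1.01, 0.848 and 1.42 CPM in the WT(ND) mice, against 0.753, 0.684, 0.469 and 0.553 CPM in the *Glis3*-Pax8Cre(ND) mice. The genotypes did not overlap on either diet.

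The difference of *Gli1* was -1.64 (0.23, adjusted p = 6.43e-05, edgeR) on the LID and -1.06 (0.23, adjusted p = 0.00555, edgeR) on the ND, and the second missed the threshold with only the 8 ND mice (-1.03, adjusted p = 0.0546). Their difference was -0.59 (0.32, adjusted p = 0.265, edgeR; 95% interval -1.27 to 0.10). *Gli1* rose with the LID in WT by 1.07 (0.22, adjusted p = 0.00126, edgeR). In *Glis3*-Pax8Cre mice the diet difference was 0.48 (0.23, adjusted p = 0.139, edgeR). *Gli1* overlaps *Arhgap9* on the other strand, and unstranded counting cannot tell reads of the 2 genes apart where they overlap. Its level rested on 12 to 630 read pairs per library.

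*Gli2*, the main activator among the GLI factors, moved up with both the knockout and the diet. *Gli2* (Entrez 14633, chr1:118834061-119053619) was at 17.8, 29.3, 24.9 and 22.8 CPM in the WT(ND) mice, against 61.0, 64.9, 67.5 and 78.5 CPM in the *Glis3*-Pax8Cre(ND) mice, a difference of 1.52 (0.15, adjusted p = 1.92e-05, edgeR). On the low-iodine diet, the values were 81.0, 95.8, 79.1 and 90.9 CPM in the WT(LID) mice, against 121, 94.7, 140.3 and 146 CPM in the *Glis3*-Pax8Cre(LID) mice, a difference of 0.53 (0.15, adjusted p = 0.0130, edgeR). The ND groups were far apart, and the LID groups overlapped through *Glis3*-Pax8Cre(LID) replicate 2. The diet raised *Gli2* by 1.87 (0.15, adjusted p = 2.98e-07, edgeR) in WT and by 0.88 (0.15, adjusted p = 0.000654, edgeR) in *Glis3*-Pax8Cre mice. The genotype difference was thus smaller on the LID, by -0.99 (0.21, adjusted p = 0.00662, edgeR's interaction term). Mir6346 lies within the span of *Gli2* on the other strand.

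*Gli3*, which acts mainly as a repressor, differed in the same directions as *Gli1*. *Gli3* (Entrez 14634, chr13:15463723-15730025) was at 3.66, 3.97, 4.91 and 4.51 CPM in the WT(LID) mice, against 2.19, 1.37, 2.30 and 2.06 CPM in the *Glis3*-Pax8Cre(LID) mice, with no overlap and a difference of -1.11 (0.20, adjusted p = 0.000624, edgeR). It was at 2.31, 2.71, 1.70 and 2.49 CPM in the WT(ND) mice, against 1.51, 1.74, 1.48 and 2.25 CPM in the *Glis3*-Pax8Cre(ND) mice, where the groups overlapped (-0.40, standard error 0.20, adjusted p = 0.179, edgeR). The diet difference was 0.89 (0.20, adjusted p = 0.00221, edgeR) in WT and 0.18 (0.20, adjusted p = 0.546, edgeR) in *Glis3*-Pax8Cre mice. The interaction of -0.71 (0.28) did not pass the test (adjusted p = 0.119, edgeR).

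Of the 6 tested members other than *Hhip*, 6 were called between *Glis3*-Pax8Cre(LID) and WT(LID), where 30.2% of all tested genes were called. *Ptch1*, *Smo* and *Gli2* were higher, with 14.9% of all genes called higher, and *Dhh*, *Gli1* and *Gli3* lower, with 15.4% called lower. Between *Glis3*-Pax8Cre(ND) and WT(ND), 3 were called, *Smo* and *Gli2* higher and *Gli1* lower, against 19.6% of all genes (10.3% higher and 9.25% lower). Between WT(LID) and WT(ND), 5 were called, *Dhh*, *Gli1*, *Gli2* and *Gli3* higher and *Smo* lower, against 41.7% of all genes. Between *Glis3*-Pax8Cre(LID) and *Glis3*-Pax8Cre(ND), 4 were called, *Dhh*, *Ptch1* and *Gli2* higher and *Smo* lower, against 25.4%, and 2 in the fit with the replicate block. The interaction was called for 2, *Dhh* and *Gli2*, both with a negative value, against 11.8% of all genes (4.43% positive and 7.41% negative). With so few genes, chosen by role, the counts describe these members only.

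**Figure D2:**
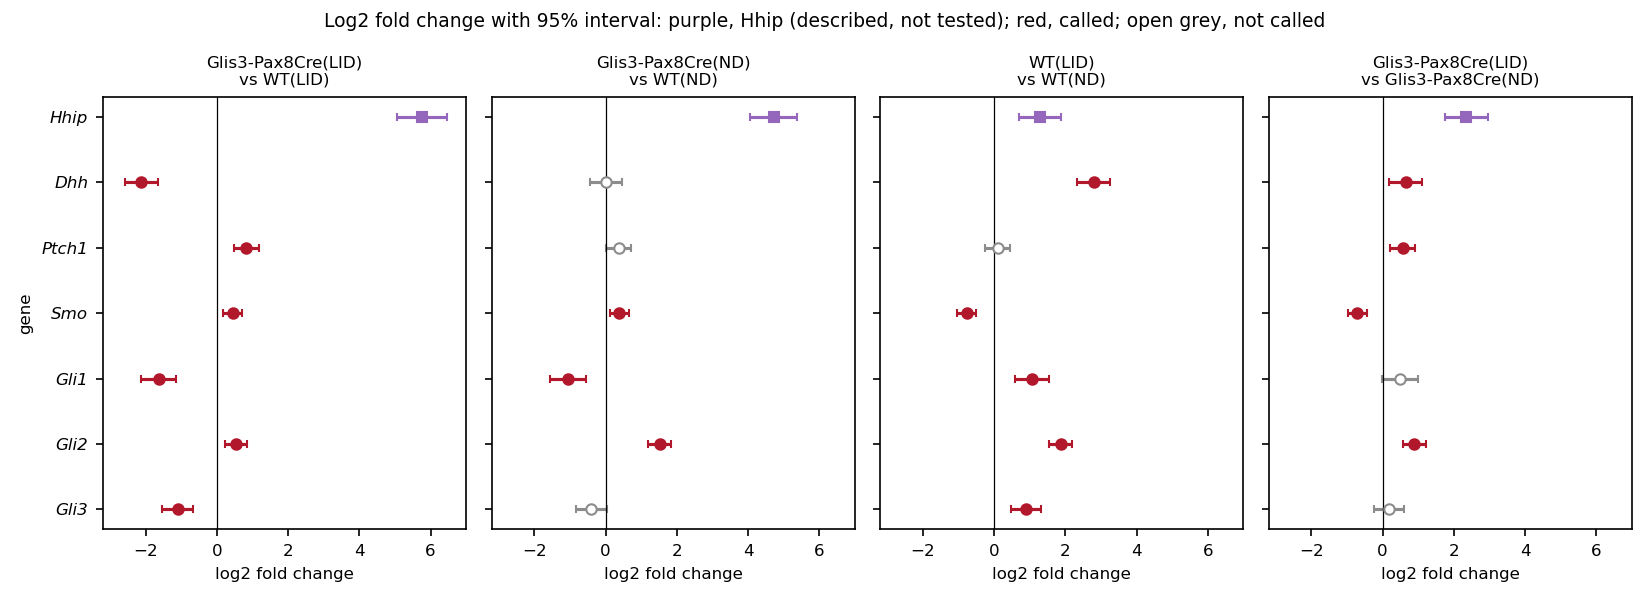
Log2 fold change (horizontal axis) of the 7 tested members in the 4 comparisons, with 95% intervals; red circles passed the test, open grey circles did not, and *Hhip* (purple squares) is a description. In the comparisons of genotype, *Ptch1*, *Smo* and *Gli2* lie right of 0 and *Gli1* and *Gli3* left of 0 on both diets.

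Per length of exon, the order of the members differed between the 4 groups. In WT(ND), *Smo* was highest at 12.3 ± 1.497 RPKM (CPM per kilobase of exon; SD, n = 4), followed by *Ptch1* at 3.78 ± 0.30 and *Gli2* at 3.45 ± 0.69 RPKM, which did not differ beyond their spread. *Hhip* followed at 0.884 ± 0.336 RPKM. *Gli1* at 0.252 ± 0.083, *Dhh* at 0.247 ± 0.064 and *Gli3* at 0.240 ± 0.046 RPKM lay within the spread of each other. In WT(LID), *Gli2* at 12.6 ± 1.16 RPKM lay above *Smo* at 7.23 ± 0.75, *Ptch1* at 4.06 ± 0.49 and *Hhip* at 2.18 ± 0.51 RPKM. In *Glis3*-Pax8Cre(ND), *Hhip* was highest at 23.3 ± 5.63 RPKM, followed by *Smo* at 16.1 ± 2.39, *Gli2* at 9.89 ± 1.09 and *Ptch1* at 4.86 ± 0.55 RPKM. *Hhip* was thus first in both *Glis3*-Pax8Cre groups, and *Gli2* lay above *Smo* on the LID and below it on the ND in both genotypes. In *Glis3*-Pax8Cre(LID), *Hhip* was highest at 119 ± 28.7 RPKM, above *Gli2* at 18.3 ± 3.39, *Smo* at 9.80 ± 1.19 and *Ptch1* at 7.21 ± 1.94 RPKM, of which the last 2 lay close.

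The ratio of *Hhip* to *Ptch1*, both of which bind the ligands, was 0.134 to 0.332 per length in WT(ND) and 0.371 to 0.768 in WT(LID). It was 3.77 to 6.20 in *Glis3*-Pax8Cre(ND) and 12.6 to 19.2 in *Glis3*-Pax8Cre(LID). Transcripts of the inhibitor were thus fewer than those of the receptor in every WT mouse and more numerous in every *Glis3*-Pax8Cre mouse, a description that rests on the rise of *Hhip*. *Gli2* made up 81.4% to 91.3% of the summed RPKM of the 3 GLI genes in WT(ND), 92.0% to 93.7% in WT(LID), 96.7% to 97.5% in *Glis3*-Pax8Cre(ND) and 97.8% to 98.3% in *Glis3*-Pax8Cre(LID). The 4 groups did not overlap in this share.

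Over the 16 mice, the Pearson correlation with *Hhip* (log2 CPM) was 0.823 for *Ptch1*, 0.751 for *Gli2* and 0.169 for *Smo*. It was -0.211 for *Dhh*, -0.507 for *Gli3* and -0.606 for *Gli1*. The 16 points fall into 4 groups and share the scaling of their libraries, so these values restate the group differences above.

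**Figure D3:**
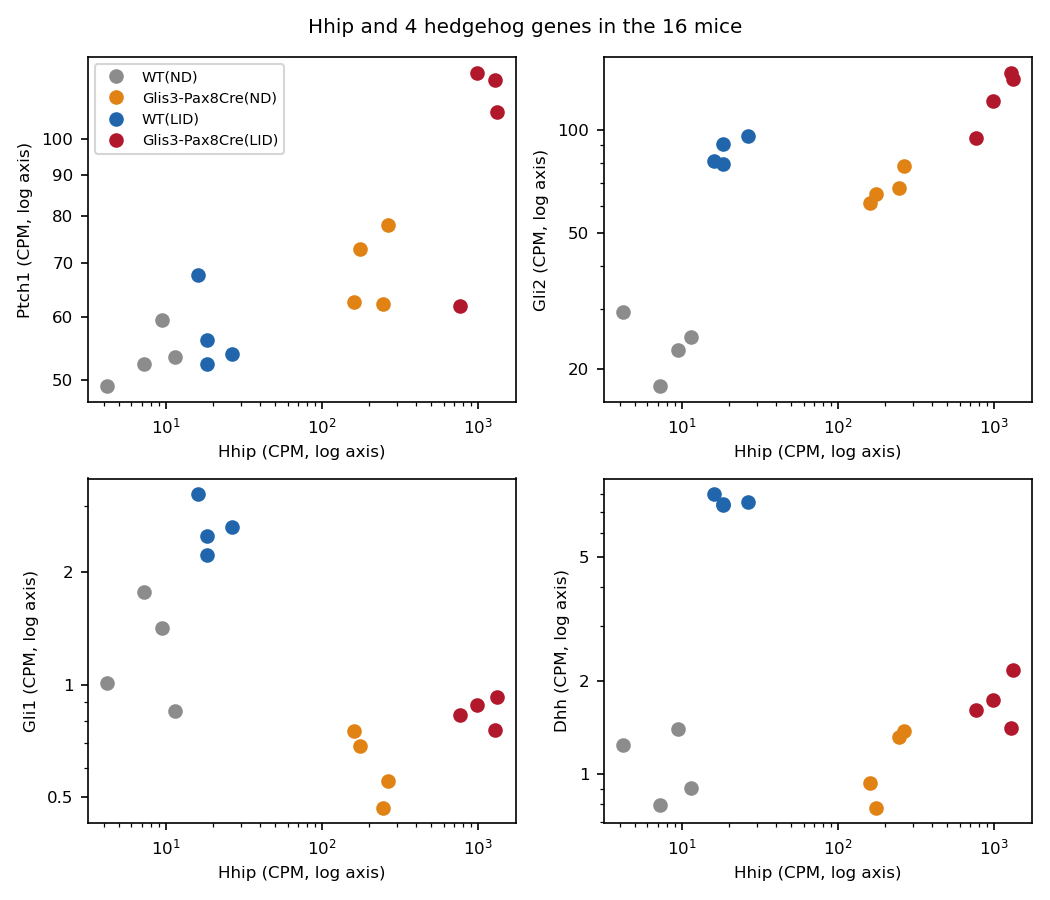
CPM of *Hhip* (horizontal, log axis) against CPM of *Ptch1*, *Gli2*, *Gli1* and *Dhh* (vertical, log axes), 1 point per mouse, coloured by group. From WT to *Glis3*-Pax8Cre mice, *Hhip* shifts to the right by more than the other genes move up or down, and *Gli1* lies lower in both *Glis3*-Pax8Cre groups than in the WT group on the same diet.

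The genes whose profile was most like *Hhip* over the 16 mice were *Ndrg3* (Pearson r = 0.988), *Col25a1* (0.985), *Kank4* (0.977), *Scg5* (0.971) and *Pmp2* (0.970). Mean *Col25a1* was 13.9 CPM in WT(ND) and 20.4 in WT(LID), against 93.4 in *Glis3*-Pax8Cre(ND) and 293 in *Glis3*-Pax8Cre(LID). None of the hedgehog members was among these 5. By Spearman's correlation the first 5 were *Elmo1*, *Alkal1*, *Ncoa2*, *Ncbp3* and *Galnt10*, so the choice of measure changed the list.

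Beyond the members, 52 other genes of the pathway were described in 4 lists by role, of which 51 were tested and *Foxl1* was not. Between *Glis3*-Pax8Cre(LID) and WT(LID), 8 were higher and 14 lower, in all 22 or 43.1%, against 30.2% of all tested genes (14.9% higher and 15.4% lower), with a median of -0.063 against 0.012 over all tested genes. With library size alone, which moved the median of all genes by 0.15, 13 were higher and 10 lower. Between *Glis3*-Pax8Cre(ND) and WT(ND), 5 were higher and 7 lower, in all 12 or 23.5%, against 19.6% of all tested genes (10.3% higher and 9.25% lower), with a median of -0.015 against 0.021, and with library size alone 10 were higher and 4 lower, the median of all genes having moved by 0.12. Whether more list genes rose or fell therefore depended on the scaling on both diets.

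Of the 6 genes for acylation, release and spread of the ligands, 3 were lower in *Glis3*-Pax8Cre(LID) and 0 higher. Of all tested genes, 15.4% were called lower and 14.9% higher there. *Disp2*, a relative of the transporter that releases the lipid-modified ligand, was at 2.90 ± 0.52 CPM against 13.6 ± 1.46 CPM in WT(LID), a difference of -2.23 (0.18, adjusted p = 3.02e-07, edgeR). *Disp2* was lower on the ND also, by -1.22 (0.17, adjusted p = 0.000275, edgeR), while *Disp1*, the transporter itself, was slightly higher there (0.34, 0.10, adjusted p = 0.0312, edgeR), a call lost with only the 8 ND mice (0.0917) and without any of 5 single mice. *Hhat*, the ligand acyltransferase, and *Scube1* were the other two that were lower on the LID.

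Among 7 receptors, co-receptors and their regulators, 1 was higher on the LID, against 14.9% of all tested genes. *Boc*, a co-receptor for the ligands, was at 135 ± 17.8 CPM against 74.1 ± 3.30 CPM in WT(LID), a difference of 0.86 (0.14, adjusted p = 0.000315, edgeR). On the ND, 0 were higher, against 10.3% of all tested genes. The co-receptor *Gas1* was lower there by -0.82 (0.17, adjusted p = 0.00432, edgeR).

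Of 24 genes that act between SMO and the GLI factors, 4 were higher and 4 lower on the LID. This was 33.3%, against 30.2% of all tested genes. On the ND, 3 were higher and 3 lower, in all 25% against 19.6% of all tested genes. *Evc2*, part of a ciliary complex that binds SMO, was higher on the LID by 0.87 (0.14, adjusted p = 0.000265, edgeR). *Kif7*, a ciliary kinesin that regulates the GLI proteins, was higher on both diets, by 0.44 (0.13, adjusted p = 0.0159, edgeR) on the LID, a call lost without WT(LID) replicates 2 or 4, and by 0.58 (0.13, adjusted p = 0.00518, edgeR) on the ND. *Prkacb*, a catalytic subunit of protein kinase A, and *Cul1* were also higher on the LID. *Tulp3* and *Csnk1d* were higher on the ND by 0.30 (0.09) and 0.22 (0.06), with adjusted p of 0.0278 and 0.0266 from edgeR, calls that were lost with only the 8 ND mice. *Gpr161*, *Iqce* and *Arrb1* were lower on both diets, *Arrb1* by -0.95 (0.09, adjusted p = 1.51e-05, edgeR) on the ND, and *Gsk3b* was lower on the LID.

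Of the 14 tested genes that GLI factors are known to induce, 3 were higher and 6 lower in *Glis3*-Pax8Cre(LID), against 14.9% and 15.4% of all tested genes, with a median of -0.33 against 0.012 over all of them. The 6 were the forkhead genes *Foxf1*, *Foxf2* and *Foxc2*, the repressor *Snai1* and the cyclins *Ccnd1* and *Ccnd2*, and the 3 were *Rab34*, *Nkx2-2* and *Bcl2*. *Foxf2*, a mesenchymal factor, was at 0.706 ± 0.422 CPM against 9.26 ± 3.21 CPM in WT(LID), a difference of -3.70 (0.57, adjusted p = 0.0002, edgeR). *Foxc2* and *Snai1* differed by -1.51 (0.24, adjusted p = 0.000185) and -1.498 (0.19, adjusted p = 3.26e-05, edgeR). *Rab34*, a ciliary GTPase, was higher by 0.91 (0.12, adjusted p = 4.82e-05, edgeR), and *Bcl2*, which limits apoptosis, by 0.59 (0.15, adjusted p = 0.00817, edgeR).

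On the ND, 1 of these 14 was higher and 1 lower, against 10.3% and 9.25% of all tested genes, with a median of 0.14. *Nkx2-2*, a homeobox gene known from the ventral neural tube and the endocrine pancreas, was at 15.4 to 40.7 CPM in the WT(ND) mice, against 81.0 to 112 CPM in the *Glis3*-Pax8Cre(ND) mice, a difference of 1.94 (0.23, adjusted p = 6.73e-05, edgeR). It was higher on the LID as well, by 0.80 (0.22, adjusted p = 0.0117, edgeR). *Mycn* was lower on the ND by -0.98 (0.21, adjusted p = 0.00418, edgeR). The genotype difference depended on the diet for 8 of the 14 genes (2 with a positive and 6 with a negative interaction), against 11.8% of all tested genes.

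In WT glands the LID went with higher levels of 16 and lower levels of 8 of the 51 list genes (47.1%, against 41.7% of all genes), or 10 and 12 with library size alone, the median of all genes having moved by -0.16. In *Glis3*-Pax8Cre mice, 8 were higher and 8 lower (31.4%, against 25.4% of all genes), or 5 and 11 with library size alone, with a shift of -0.13. Of the 14 tested genes that GLI factors induce, 7 were higher and 2 lower with the LID in WT, against 20.9% and 20.8% of all tested genes. In *Glis3*-Pax8Cre mice, 2 of the 14 were higher and 2 lower, near the shares of all tested genes (13.1% and 12.3%). *Foxf2* rose in WT by 3.00 (0.55, adjusted p = 0.00054, edgeR) and *Snai1* by 1.89 (0.19, adjusted p = 2.5e-06, edgeR).

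**Figure D4:**
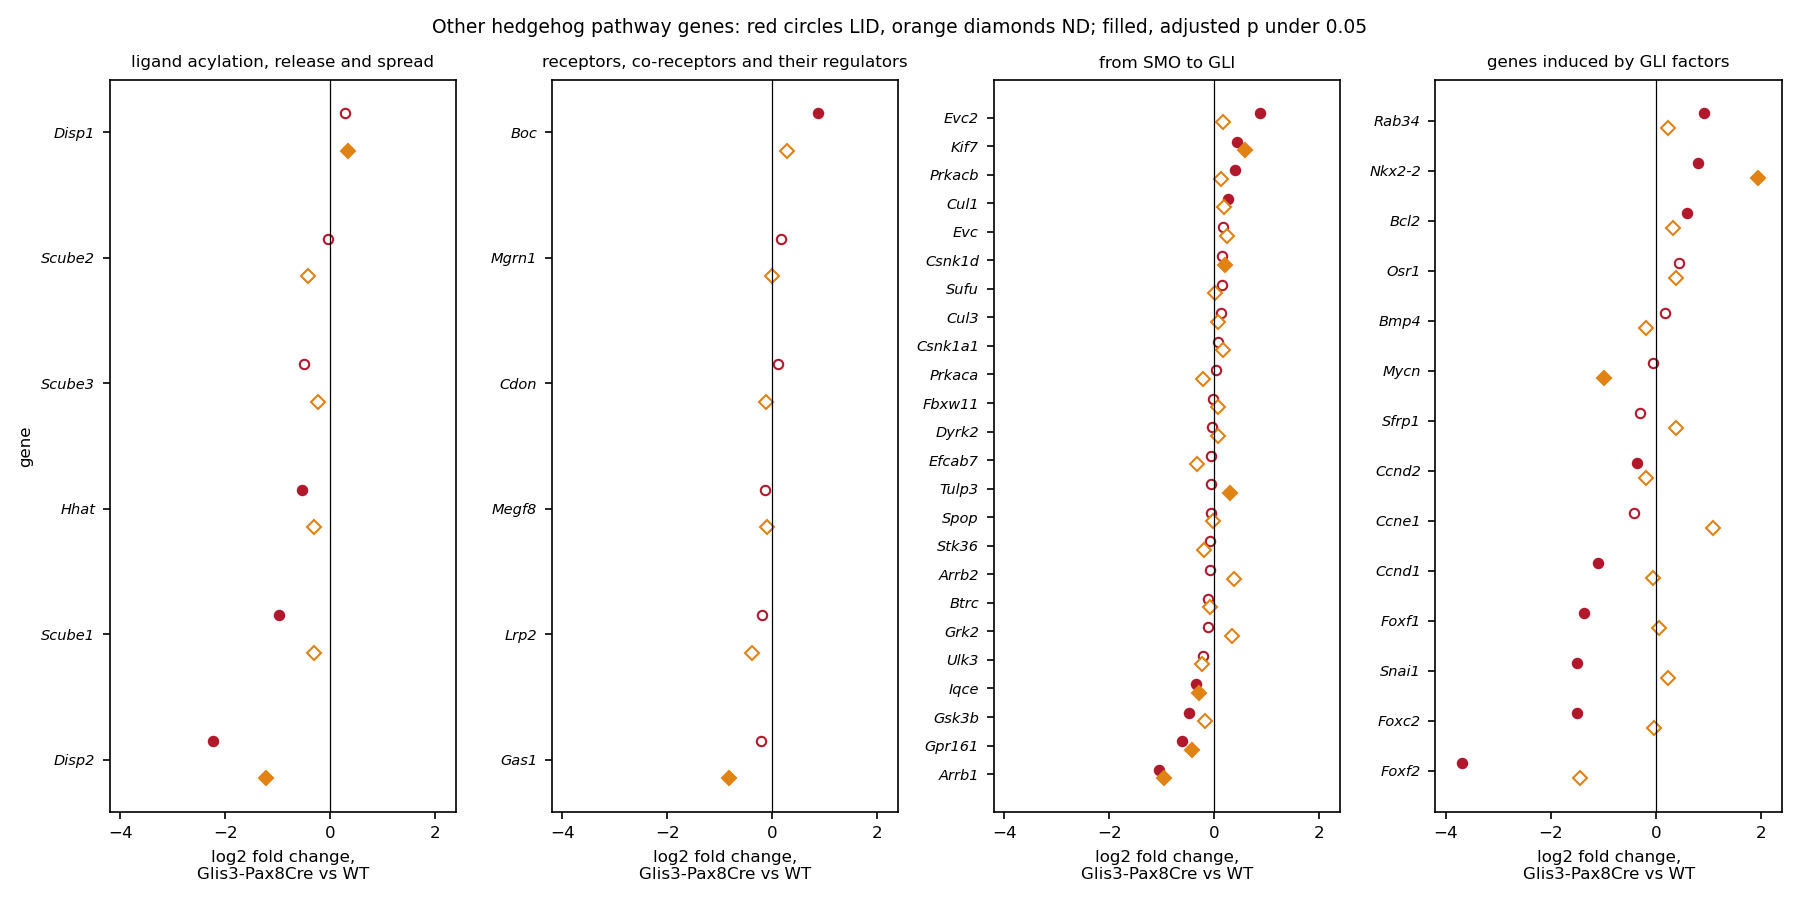
Log2 fold change between *Glis3*-Pax8Cre and WT mice (horizontal axis) of the tested pathway genes in 4 panels by role (1 of the 51 is not shown), on the LID (red circles) and on the ND (orange diamonds). Filled symbols passed the test; *Foxf2* and *Disp2* lie farthest to the left on the LID and *Nkx2-2* farthest to the right on the ND.

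Some markers of cells other than follicular cells were highest in WT(LID), where *Dhh*, *Gli1*, *Gli3* and the forkhead genes *Foxf1*, *Foxf2* and *Foxc2* were highest too. The 5 endothelial markers summed to 448 to 549 CPM in WT(ND) and 558 to 777 CPM in *Glis3*-Pax8Cre(ND), and on the low-iodine diet to 1215 to 1360 CPM in WT(LID) against 559 to 707 CPM in *Glis3*-Pax8Cre(LID). The 5 markers of pericytes and smooth muscle summed to 352 to 449, 457 to 638, 825 to 1253 and 424 to 639 CPM in the same order. Both sums were higher without overlap in *Glis3*-Pax8Cre(ND) than in WT(ND). Called higher there were 2 of 5 endothelial and 1 of 5 pericyte and smooth muscle markers, and 0 were called lower. Of all tested genes, 10.3% were called higher and 9.25% lower in this comparison. Only 2 of the 5 pericyte and smooth muscle markers had a positive difference. Mean *Rgs5* was 259 CPM in WT(ND) and 413 CPM in *Glis3*-Pax8Cre(ND), and mean *Acta2* 30.2 and 27.6 CPM. Among the members, *Gli1* was lower there, *Gli2* and *Smo* were higher, and *Dhh*, *Ptch1* and *Gli3* were not called.

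The 5 fibroblast markers summed to 536 to 742, 249 to 507, 1062 to 1240 and 366 to 659 CPM, lower in *Glis3*-Pax8Cre mice on both diets without overlap, as *Gli1* was. The 5 did not move together with the LID in WT, where 2 were called higher and 2 lower. Of all tested genes, 20.9% were called higher and 20.8% lower there. Mean *Col1a1* was 132.6 CPM in WT(ND) and 468 CPM in WT(LID), and mean *Pdgfra* 32.4 and 17.8 CPM. In *Glis3*-Pax8Cre(LID) against WT(LID), 4 of 5 endothelial, 4 of 5 pericyte and 2 of 5 fibroblast markers were called lower and 0 higher. Of all tested genes, 15.4% were called lower and 14.9% higher in this comparison. The 5 Schwann cell markers summed to 62.5 to 88.8, 86.8 to 134, 55.5 to 76.1 and 59.1 to 120 CPM, and were not highest in WT(LID), unlike *Dhh*. None of these 20 markers was at 0 in any group, and their part in the results for the members was not tested. Of the 14 marker lists, 0 were higher in *Glis3*-Pax8Cre mice without overlap on both diets, as *Hhip* was. The 6 follicular markers, of which *Tg* holds most, were lower on both diets without overlap. The 4 parathyroid markers summed to 6886 to 12570 CPM in WT(ND) and 1674 to 3734 CPM in WT(LID). In *Glis3*-Pax8Cre mice they summed to 5622 to 8780 CPM on the ND and 366 to 3501 CPM on the LID. All 4 were called lower with the LID in both genotypes, as *Smo* was, against 20.8% of all tested genes in WT and 12.3% in *Glis3*-Pax8Cre mice. Their part in the level of *Smo* was not tested.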

How the data were processed

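The authors extracted RNA from whole thyroid glands, mapped read pairs to mm10 with STAR 2.5 and counted them per RefSeq gene with featureCounts 1.5.0-p1 without regard to strand. Which instrument read which library is not given in the sources used here. The deposited table holds raw counts, not normalized.

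They were fitted with edgeR 4.0.16 in R 4.3.3 (filterByExpr on the 4 groups, TMM, robust quasi-likelihood test, 1 mean per group, 16 mice, 16630 genes, Benjamini-Hochberg adjustment). CPM values use TMM-scaled library sizes, and RPKM the merged exon length of GENCODE vM21, which holds exons that thyroid transcripts may lack. Correlations use log2 CPM with a prior count of 2. DESeq2 1.42.0, other scalings, filters, a stricter call and leaving out each mouse were alternatives. Of the list genes called between genotypes, at most 6 per direction and comparison are given with values. The values of 1 pathway gene are not reported here. Markers of 14 cell types were summed per mouse.

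The members and lists were chosen with earlier results of these data known. Nothing says whether replicates differ in more than the mouse. Same-numbered mice deviated together in *Glis3*-Pax8Cre(LID) and *Glis3*-Pax8Cre(ND) (correlations 0.212 to 0.648), which is a hint from the data, and not in the other comparisons (-0.521 to 0.14). The 24 pairs of libraries within groups differed by more than sampling noise (chi-squared per degree of freedom 33.2 or more). Limits from a count of 0 cover counting error only. The fit was tested on simulated counts.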

Additional observations from a re-analysis of the deposited data

Results flagged for a closer look

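The effect of the genotype differed between the diets for 2 members. For *Dhh* the interaction was -2.14 (edgeR's interaction term, adjusted p = 0.000294), with no overlap between genotypes on the LID and overlap on the ND. For *Gli2* it was -0.99 (adjusted p = 0.00662), with a smaller genotype difference on the LID.

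*Shh* stood apart in 1 mouse of each of 2 groups, at 0.0130 CPM in WT(LID) replicate 1 and at 0.0176 CPM in the *Glis3*-Pax8Cre(LID) mice replicate 4, as the only mouse of its group with any read pair. Each value is 1 read pair, below the 3 counts that a count of 0 allows. In all, 36 groups of values were examined for a mouse far from the others. A group in which only 1 mouse has any read pair is always flagged, so no chance rate is given for these 2.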

How the results depend on the processing

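Over all results, 514 of the values under other settings kept their direction and call, or stayed within 1.5 times for counts, 36 counts moved by more, 13 differences lost and 2 gained their call, and 1 changed sign. Under the stricter call, a fold change over 2 at an adjusted p under 0.01, the members called other than *Hhip* were 3 between genotypes on the LID, 3 between diets in WT, 0 between diets in *Glis3*-Pax8Cre mice and 1 for the interaction. The pathway list genes called at this threshold were 8 between genotypes on the LID, 2 on the ND, 7 between diets in WT, 1 between diets in *Glis3*-Pax8Cre mice and 4 for the interaction. No share of all tested genes is given at this threshold or under the other settings, so such counts cannot be set against one. With library size alone, *Ptch1* on the ND was 0.49 and called, *Ptch1* between diets in WT changed sign (-0.048), and 2 members were called between diets in *Glis3*-Pax8Cre mice. With only the 8 mice of a comparison, 6 list genes were called on the ND, *Ptch1* was 0.38 and called, *Gli1* was -1.03 and not called, and 2 members and 9 list genes were called between diets in *Glis3*-Pax8Cre mice. With DESeq2, 9 list genes were higher on the ND and 11 were lower for the interaction. The cause of these changes was not tested.

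A fit of the 8 *Glis3*-Pax8Cre mice with the replicate block, a setting chosen after seeing the data, left 2 members called between the diets, and the block in all 16 mice changed no member's call. Leaving out 1 mouse at a time gave 7 to 17 list genes on the ND (7 without WT(ND) replicate 1), 6 to 12 for the interaction (6 without WT(LID) replicate 4), 2 to 4 members between diets in *Glis3*-Pax8Cre mice (2 without replicate 1 of either group) and 0.31 to 0.43 for *Ptch1* on the ND. Of values not called, *Dhh* on the ND ranged from -0.11 to 0.18 and the *Smo* interaction from -0.053 to 0.13. Depth limits *Shh* and *Ihh*, which had too few counts for a test, and *Glis3*-Pax8Cre(ND) replicate 1 is the shallowest library.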

Other observations

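Relatives of HHIP, PTCH1 and the GLI factors were read beside the members. *Hhipl1*, an HHIP-like gene, was at 2.11 ± 0.60 CPM in the WT(LID) mice, against 0.783 ± 0.267 CPM in the *Glis3*-Pax8Cre(LID) mice, a difference of -1.42 (standard error 0.27, adjusted p = 0.00076, edgeR), opposite in direction to *Hhip*. It was higher with the LID in both genotypes, by 2.47 (0.28, adjusted p = 5.69e-06, edgeR) in WT and by 1.34 (0.28, adjusted p = 0.00319, edgeR) in *Glis3*-Pax8Cre mice. *Hhipl2* stayed at 0.0150 to 0.482 CPM over the 16 mice and did not pass the test in any comparison.

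*Ptchd1*, which shares the patched domain, was at 3.03 ± 0.73 CPM in the WT(LID) mice, against 0.863 ± 0.252 CPM in the *Glis3*-Pax8Cre(LID) mice, a difference of -1.81 (0.24, adjusted p = 4.84e-05, edgeR). On the ND its difference was 0.12 (0.24, adjusted p = 0.765, edgeR), and the interaction was -1.93 (0.34, adjusted p = 0.00167, edgeR). *Glis2*, a relative of *Glis3*, was lower on both diets, by -0.78 (0.13, adjusted p = 0.000364, edgeR) on the LID and by -0.82 (0.13, adjusted p = 0.000763, edgeR) on the ND. Its 4 group means were 29.0 ± 3.56 CPM in WT(ND) and 27.4 ± 3.99 in WT(LID), against 16.5 ± 2.25 in *Glis3*-Pax8Cre(ND) and 15.9 ± 2.15 in *Glis3*-Pax8Cre(LID). *Glis1* did not pass the test in any comparison.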
